A study of Bos taurus with 6 samples.

Results

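The DUSP and Sprouty feedback inhibitors of ERK were followed in cumulus cells of cattle, the somatic cells attached to the oocyte. They were chosen by symbol, as every array probe that the platform annotation gives to DUSP1, DUSP4, DUSP5, DUSP6, SPRY1, SPRY2, SPRY4, SPRED1 or SPRED2. This gave 12 probes of 9 genes, out of 43794 gene probes and 15216 genes with a symbol. After a filter on dim probes, 10 of the 12 probes and 8 of the 9 genes could be tested, and SPRY4 was the gene that could not.

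The cells came from a study of 6 Holstein dairy cows. Per the labels, both conditions had follicle-stimulating hormone (FSH) 2 times a day for 3 days and then 68 h without it. The cetrorelix condition also had 12 mg of cetrorelix daily over 5 days, starting on day 2 of FSH and lasting to the recovery of the cumulus-oocyte complexes, and the control condition did not. Cetrorelix is known as an antagonist of the gonadotropin-releasing hormone receptor, which reduces luteinizing hormone (LH) secretion, although the labels name it an agonist. There were 3 replicates per condition, each measured on 2 two-colour arrays with the dyes swapped, so that 6 arrays each held both conditions. Which cows contributed to each replicate is not stated in the labels, so the p-values measure the spread between these samples. The 3 arrays with cetrorelix RNA in Cy5 shared a slide and the 3 with cetrorelix RNA in Cy3 shared another, so that an effect of slide cannot be told apart from one of dye orientation. Across all tested probes, the log2 ratios of the 2 arrays of a replicate correlated weakly, at r = 0.08, 0.26 and -0.13 in replicates 1, 2 and 3. RNA was amplified before labelling.

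ERK is the last kinase of the cascade that runs from growth factor receptors through RAS, RAF and MEK. Active ERK switches on genes whose products switch the cascade off again, and the DUSP, SPRY and SPRED genes are among the best known of these. DUSP proteins remove phosphate from ERK and related MAP kinases, Sprouty proteins act upstream by hindering the activation of RAS and RAF, and SPRED proteins bring the RAS-inactivating protein neurofibromin to the membrane. In the follicle, the LH surge acts on cumulus cells through EGF-like factors and ERK, and ERK in cumulus cells is needed for expansion and for the oocyte to resume meiosis.

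All ratios below are log2 ratios of cetrorelix over control, so that -1 is a level halved by cetrorelix treatment. Errors are the SD over the 3 replicates, each the average of its 2 arrays. Background was judged per array and channel: a spot passed when it was brighter, in raw intensity, than 95% of negative control spots there. That limit lay between 188 and 236 in cetrorelix channels and between 161 and 230 in control channels.

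In brief, DUSP1 was the member with the lowest p, and it lay lower after cetrorelix in replicates 2 and 3 and slightly above the control in replicate 1. The brighter SPRY1 probe was low in the same 2 replicates, by a smaller amount. DUSP4, DUSP5, DUSP6, SPRY2, SPRED1 and SPRED2 had mean log2 ratios between -0.27 and 0.07. By limma with adjustment over all 32125 tested probes, 0 of the 8 tested members passed an adjusted p of 0.05, where 0.0125% of tested probes and 0.00806% of the 12400 tested genes did. At an unadjusted p under 0.05 by the same fit, 1 member was lower, DUSP1, and 0 were higher, where 8.55% of tested genes were lower and 7.18% higher. One lower member among 8 is close to that background.

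**Figure D1:**
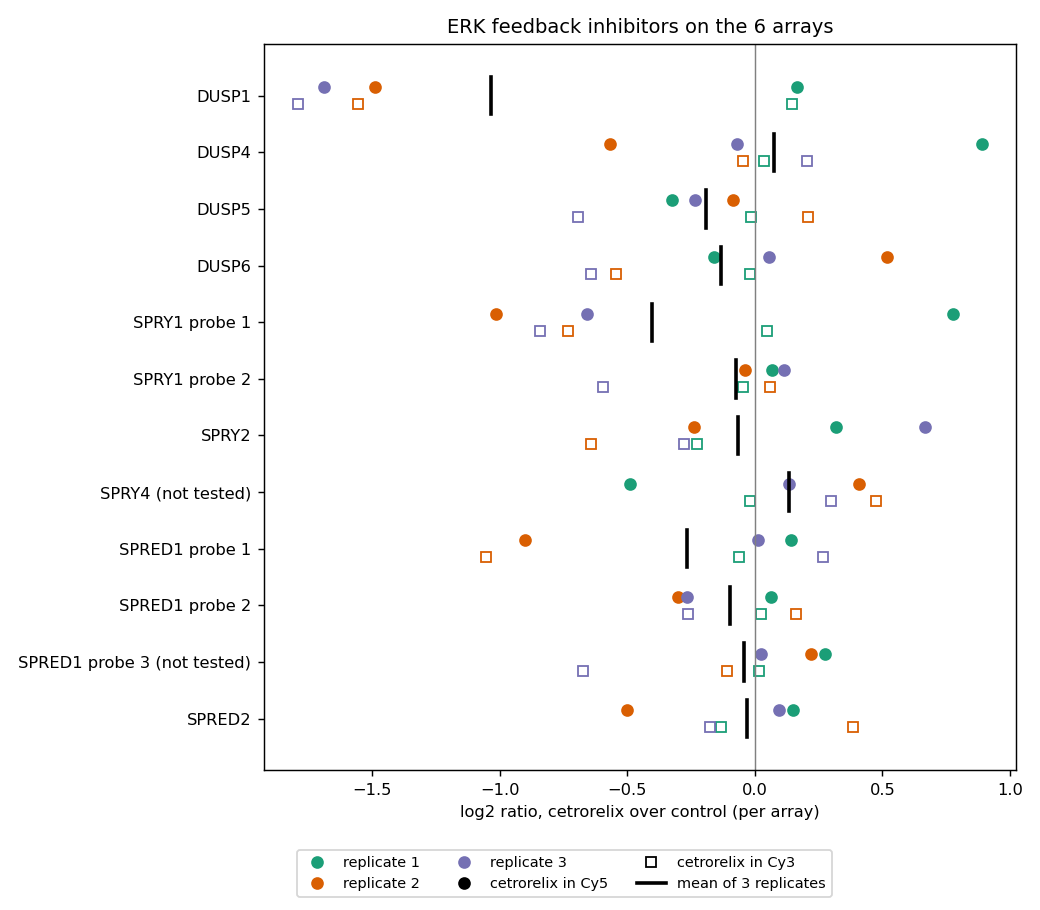
Log2 ratio of cetrorelix over control (x axis) for each of the 12 member probes (rows) on each of the 6 arrays, with the replicate by colour, the slide by symbol and the mean of the 3 replicates as a black bar. DUSP1 lies between -1.79 and -1.49 on the 4 arrays of replicates 2 and 3 and at 0.15 and 0.16 in replicate 1.

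DUSP1, also named MKP-1, is a nuclear phosphatase of p38, JNK and ERK and is itself an immediate early gene. Its probe was above background on 6 of 6 arrays in both conditions. On the slide with cetrorelix in Cy5, its raw intensity was 3722, 637 and 579 in the cetrorelix cells of replicates 1, 2 and 3, against 4437, 2916 and 2832 in the control cells. On the slide with cetrorelix in Cy3, the raw intensity was 4726, 992 and 1050 in the cetrorelix cells, against 3844, 2517 and 2679 in the control cells. The cetrorelix cells of replicates 2 and 3 were thus dim on both slides, while replicate 1 was bright in both conditions.

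After normalization the log2 intensity of DUSP1 was 11.98, 9.83 and 9.70 in the cetrorelix cells of the 3 replicates, against 11.82, 11.35 and 11.44 in the control cells. The groups overlapped, because the cetrorelix cells of replicate 1 were above every control value. The spread was 10.50 ± 1.28 in cetrorelix cells and 11.54 ± 0.25 in control cells (SD, n = 3 each), so the controls lay close together and the cetrorelix samples did not. In material of many cells, fewer cells that express a gene and less RNA of it per cell cannot be told apart.

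The log2 ratios of DUSP1 were 0.16, -1.52 and -1.74 in replicates 1, 2 and 3. Their mean was -1.04 ± 1.04 (SD, n = 3). In fold terms, the mean level after cetrorelix was 0.488 of the control. By limma the 95% interval of the log2 ratio ran from -1.76 to -0.31, with an unadjusted p of 0.0108 and an adjusted p of 0.249. That p rests on a moderated SD of 0.55, which limma draws from all probes and which is smaller than the SD of the 3 DUSP1 values. Both slides gave nearly the same numbers, and within replicates they differed by 0.06 ± 0.04 (limma adjusted p = 0.933 for the slide difference).

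The size of the DUSP1 value depended on single replicates. Without replicate 1 its log2 ratio was -1.63, without replicate 2 it was -0.79, and without replicate 3 it was -0.68. With the arrays scaled to equal spread, the log2 ratio was -0.86 and the unadjusted p by limma was 0.173, so that the call at unadjusted p was lost.

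**Figure D2:**
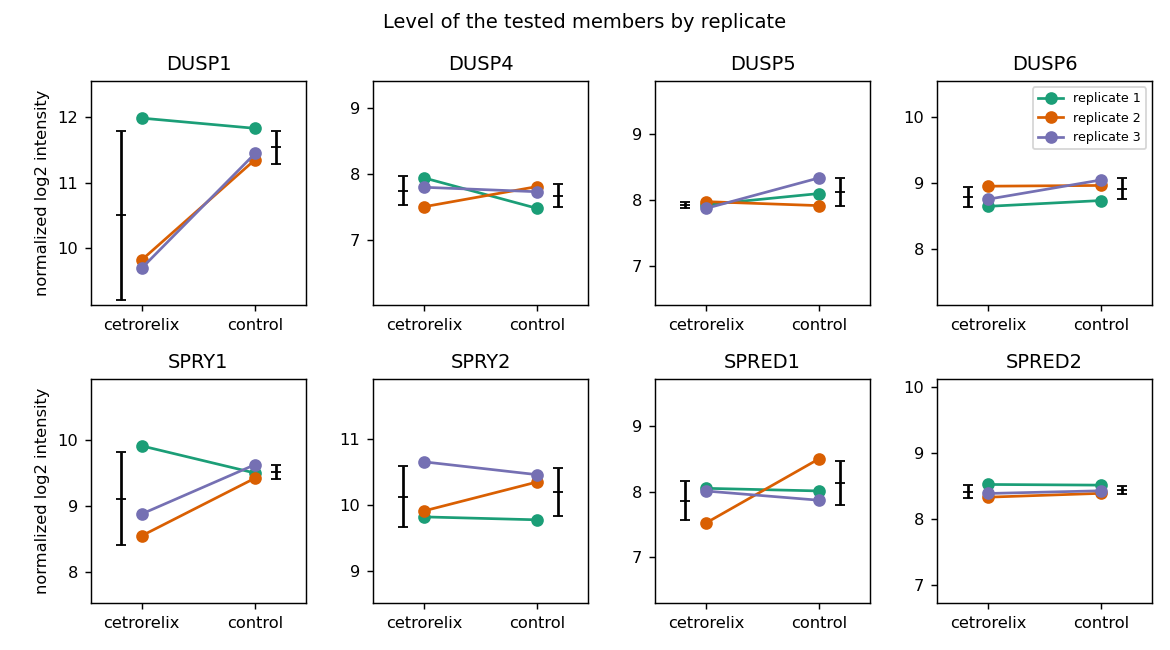
Normalized log2 intensity (y axis, spanning the same number of log2 units in each panel) of the 8 tested members in cetrorelix and control cells, with the 3 replicates joined by lines and the mean ± SD beside each group. The control values of DUSP1 lie between 11.35 and 11.82, and its cetrorelix values between 9.70 and 11.98.

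DUSP4 and DUSP5 are inducible phosphatases of the nucleus, and DUSP5 acts on ERK alone. Both were dim. DUSP4 was above background in 3 of 6 cetrorelix channels and in 1 of 6 control channels, and its log2 intensity was 7.94, 7.50 and 7.79 in cetrorelix cells, against 7.47, 7.80 and 7.73 in control cells. Its log2 ratios of 0.46, -0.31 and 0.07 lay on both sides of 0 (mean 0.07 ± 0.39). By limma the 95% interval for DUSP4 ran from -0.33 to 0.48 (adjusted p = 0.959). DUSP4 passed the filter, at least 3 arrays above background in either condition, through its cetrorelix channels alone.

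DUSP5 was above background in 4 of 6 cetrorelix channels and in all 6 control channels. Its log2 intensity was 7.93, 7.98 and 7.87 in cetrorelix cells, against 8.10, 7.92 and 8.34 in control cells. A DUSP5 ratio below 0 was found on 5 of 6 arrays, and the replicate values were -0.17, 0.06 and -0.46 (mean -0.19 ± 0.26, 95% interval -0.55 to 0.17, limma adjusted p = 0.795).

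DUSP6, also named MKP-3, is the phosphatase that holds ERK in check in the cytoplasm. Its probe was above background on all arrays, with raw intensities from 316 to 506 in cetrorelix cells and from 401 to 577 in control cells. Its log2 intensity was 8.64, 8.95 and 8.75 in cetrorelix cells, against 8.73, 8.96 and 9.04 in control cells, and the groups overlapped. The log2 ratios of DUSP6 were -0.09, -0.01 and -0.29 (mean -0.13 ± 0.15). By limma the 95% interval ran from -0.46 to 0.20 (adjusted p = 0.868), which is 0.725 to 1.15 of the control level.

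The steady average of DUSP6 held values of opposite sign on the slides in replicates 2 and 3, while both were below 0 in replicate 1. Its log2 ratios were -0.16, 0.52 and 0.05 where cetrorelix RNA carried Cy5, and where it carried Cy3 they were -0.02, -0.54 and -0.64. The slide difference was 0.54 ± 0.62 with an adjusted p of 0.187 by limma, and it was one of 2 members at an unadjusted p under 0.05 for that difference, where 24.9% of tested genes were. At adjusted p under 0.05, 0 of the 8 members differed between slides, where 12.7% of tested genes did.

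SPRY1, SPRY2 and SPRY4 code for Sprouty proteins, which growth factors such as FGFs are known to induce. SPRY1 has 2 probes. The brighter was above background on all arrays, and on the slide with cetrorelix in Cy5 its raw intensity was 1001, 267 and 308 in cetrorelix cells, against 803, 713 and 821 in control cells. On the slide with cetrorelix in Cy3 it was 995, 465 and 543 in cetrorelix cells, against 790, 565 and 717 in control cells. As with DUSP1, the cetrorelix cells of replicates 2 and 3 were the dimmer samples and those of replicate 1 were not.

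The log2 intensity of the brighter SPRY1 probe was 9.92, 8.55 and 8.89 in cetrorelix cells, against 9.51, 9.43 and 9.63 in control cells. Its log2 ratios were 0.41, -0.87 and -0.75 (mean -0.40 ± 0.71). By limma the 95% interval for SPRY1 ran from -0.95 to 0.15, with an unadjusted p of 0.131 and an adjusted p of 0.653. Without replicate 1 the SPRY1 value was -0.81, without replicate 2 it was -0.17 and without replicate 3 it was -0.23. The second SPRY1 probe was near background, on 3 of 6 arrays above it in cetrorelix cells and on 4 of 6 in control cells, and lay at -0.07 ± 0.15, so the low values of SPRY1 rest on 1 probe.

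SPRY2 was above background on all arrays. Its log2 intensity was 9.82, 9.91 and 10.66 in cetrorelix cells, against 9.78, 10.35 and 10.46 in control cells, and both groups spanned nearly the same range. The replicate log2 ratios were 0.04, -0.44 and 0.20 (mean -0.07 ± 0.33, 95% interval -0.45 to 0.32, limma adjusted p = 0.961). SPRY2 differed by slide in the same direction in each replicate. Its log2 ratios were 0.32, -0.24 and 0.67 on the Cy5 slide of cetrorelix, and on the Cy3 slide -0.23, -0.64 and -0.28. That difference was 0.63 ± 0.28 (limma unadjusted p = 0.0168, adjusted p = 0.104). Both slide means of SPRY2 therefore had opposite signs, 0.25 and -0.38.

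SPRY4 was above background on 1 of 6 arrays in each condition and was not tested. Its raw intensity lay between 122 and 258 in cetrorelix cells and between 108 and 212 in control cells, close to the negative controls.

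**Figure D3:**
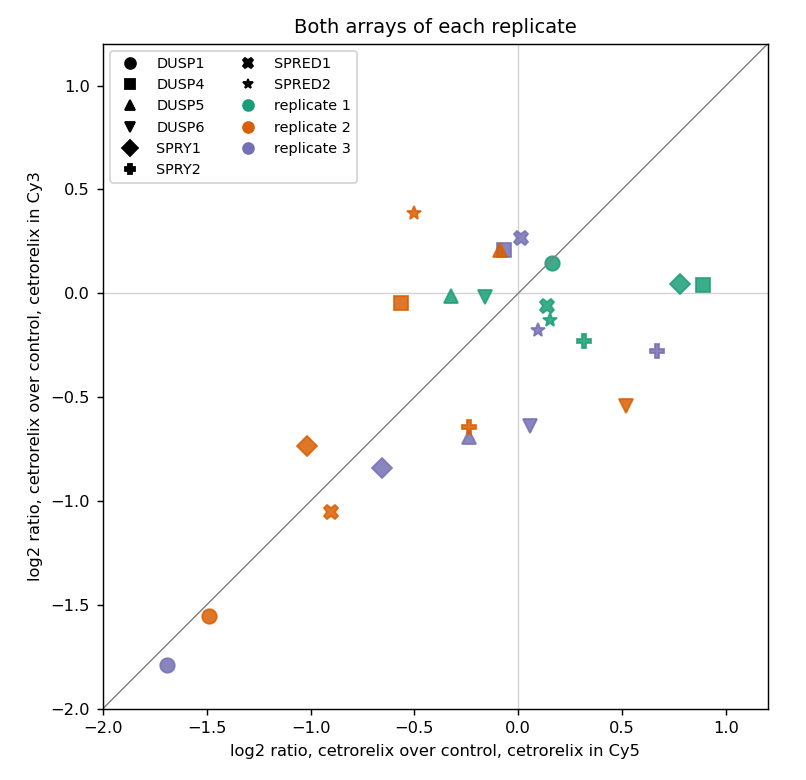
Log2 ratio of cetrorelix over control on the array with cetrorelix in Cy3 (y axis) against the array with cetrorelix in Cy5 (x axis), for each of the 8 tested members in each of the 3 replicates; the grey diagonal marks equal values. The 3 DUSP1 points lie on the diagonal, and the SPRY2 points lie below it.

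SPRED1 and SPRED2 code for Sprouty-related proteins with an EVH1 domain. SPRED1 has 3 probes, all dim, of which 2 could be tested. The brightest was above background in 3 of 6 cetrorelix channels and in 5 of 6 control channels, with a log2 intensity of 8.05, 7.52 and 8.01 in cetrorelix cells, against 8.01, 8.50 and 7.87 in control cells. It was low in replicate 2 alone, where both arrays gave -0.90 and -1.05, and the replicate log2 ratios were 0.04, -0.98 and 0.14 (mean -0.27 ± 0.62, 95% interval -0.77 to 0.24, limma adjusted p = 0.798). The second SPRED1 probe read -0.07 in replicate 2 and -0.10 ± 0.16 on average, so that the low value was not shared between probes. The third was above background in 0 of 6 cetrorelix channels and 1 of 6 control channels.

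SPRED2 was above background in 5 of 6 cetrorelix channels and in all 6 control channels. Its log2 intensity was 8.53, 8.33 and 8.39 in cetrorelix cells, against 8.52, 8.39 and 8.43 in control cells. With log2 ratios of 0.01, -0.06 and -0.04, SPRED2 had the narrowest spread over replicates of the 8 tested members (mean -0.03 ± 0.04, 95% interval -0.35 to 0.29, limma adjusted p = 0.980). Its array values were wider, from -0.50 to 0.39, and replicate 2 held both ends.

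Taken over the 8 tested members, 7 mean ratios lay below 0 and 1, that of DUSP4, above, with a median of -0.16, while 51.8% of all tested genes lay below 0 with a median of -0.01. The signs of DUSP4, DUSP6, SPRY2, SPRED1 and SPRED2 turned under at least 1 of the alternatives described below. SPRY2 and SPRED2 lay at only -0.07 and -0.03. The median of the members was 0.04 in replicate 1, -0.37 in replicate 2 and -0.17 in replicate 3. None of the 8 had ratios of the same sign on all 6 arrays, where 9.77% of tested genes did (5.75% below 0 and 4.02% above). None had opposite signs on all 3 arrays of each slide, where 8.93% of tested genes did. None had cetrorelix and control levels that did not overlap, where 9.48% of tested genes lay wholly lower and 6.64% wholly higher in cetrorelix cells.

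By Pearson's r of the log2 ratio over the 6 arrays, SPRY1 was the member most like DUSP1 (r = 0.91) and DUSP4 the next (r = 0.58). Outside the members, the genes most like DUSP1 were PARD3 (r = 0.98), GEM (r = 0.97) and NAMPT (r = 0.97), those most like SPRY1 were VNN1, HOXD11 and SLIT2 (r = 0.99, 0.98 and 0.98), and those most like SPRED1 were SERPINI1, ZNF292 and ZNF263 (r = 0.996, 0.996 and 0.995). These r values describe 6 arrays that come from 3 replicates and share extracts in pairs, and they are the highest found among the 12400 tested genes. A high r follows the pattern over arrays and does not mean a like mean. The mean log2 ratios of PARD3, GEM and NAMPT were 0.34, -0.05 and -0.23. Those of VNN1, HOXD11 and SLIT2 were 0.47, 0.74 and -0.07, and those of SERPINI1, ZNF292 and ZNF263 were -0.17, 0.38 and -0.12.

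Transcripts that ERK is known to induce had values on both sides of 0. Of 21 listed genes outside the members, 15 were measured, and 0 passed at adjusted p. At unadjusted p under 0.05 by limma, 4 were higher and 2 lower, where 7.18% of tested genes were higher and 8.55% lower. The median of the 15 was 0.08, and it depended on the slide and the replicates. With cetrorelix in Cy5 alone it was 0.36, and with cetrorelix in Cy3 alone -0.01. It was 0.01 without replicate 1 and 0.15 without replicate 2. FOSL1, an AP-1 subunit, had log2 ratios of 0.84, 3.16 and 1.42 (mean 1.81 ± 1.21, adjusted p = 0.110). FOS, the AP-1 subunit of the first minutes of a response, had -0.18, -1.50 and -1.37 (mean -1.02 ± 0.73, adjusted p = 0.170), so that replicates 2 and 3 were its low ones too, but a second FOS probe, also above background on all arrays, lay at 0.02 ± 0.42. The slide means of the first FOS probe were -0.52 where cetrorelix RNA carried Cy5 and -1.51 where it carried Cy3. EGR1, an immediate early zinc finger factor, had 1.61, 0.74 and 0.24 (mean 0.86 ± 0.69, adjusted p = 0.208), with replicate 1 the highest.

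**Figure D4:**
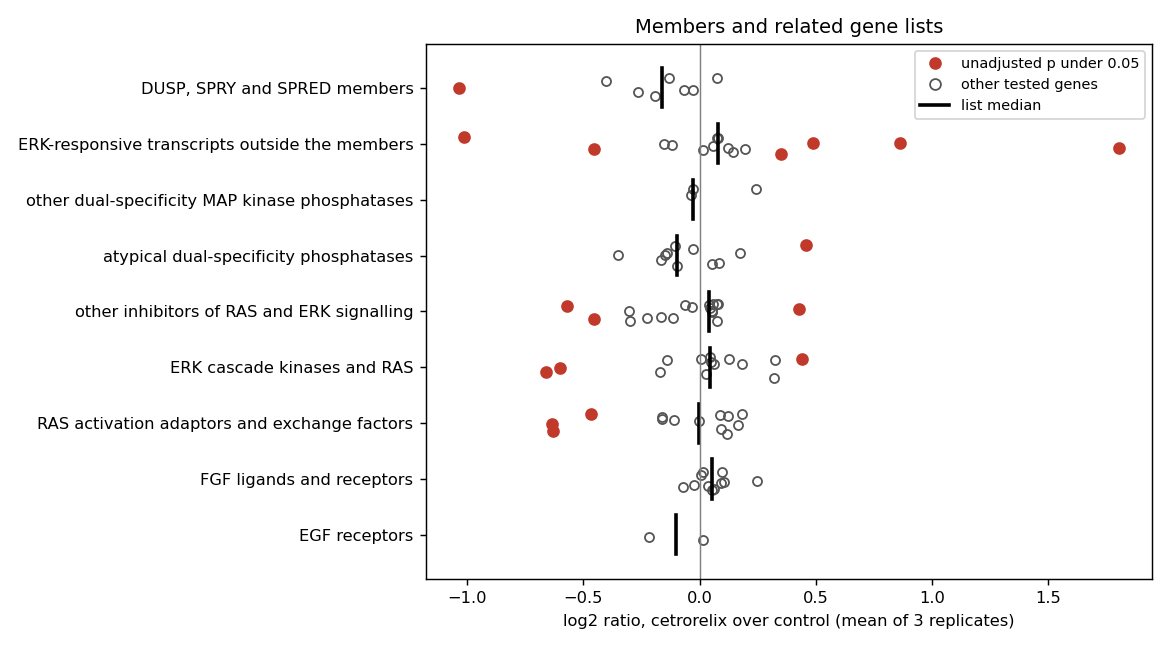
Mean log2 ratio of cetrorelix over control (x axis) of each tested gene in the members and in 8 related gene lists, with genes at unadjusted p under 0.05 filled and the list median as a black bar; the vertical scatter within a row has no meaning. The medians of the 9 rows lie between -0.16 and 0.08.

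Other phosphatases of the DUSP family gave 1 gene at unadjusted p under 0.05 by limma, a rule that 15.7% of tested genes met. Of the 6 other dual-specificity MAP kinase phosphatases, 3 were measured, with a median of -0.03 and 0 at unadjusted p, and they were DUSP10 at 0.25 ± 0.71, DUSP2 at -0.04 ± 0.16 and DUSP16 at -0.03 ± 0.19. Further tested probes of DUSP10 lay at 0.05 ± 0.27 and -0.01 ± 0.17. Of these 3 genes, 0 were above background on all arrays in both channels. DUSP2 was above it in 1 of 6 cetrorelix and 3 of 6 control channels, and passed the filter through its control channels alone. Of 16 atypical dual-specificity phosphatases, 11 were measured, with a median of -0.10. DUSP14, a small phosphatase, was higher at unadjusted p, with log2 ratios of 0.46, 0.50 and 0.42 (mean 0.46 ± 0.04, limma adjusted p = 0.248) and all 6 arrays above 0. DUSP11, a phosphatase of RNA, lay at -0.35 ± 0.28 and DUSP12 at -0.17 ± 0.02, neither at unadjusted p under 0.05. The slide means of that DUSP12 probe lay further apart, at -0.36 where cetrorelix RNA carried Cy5 and 0.03 where it carried Cy3. Further tested probes of DUSP12 lay at -0.09 ± 0.59 and 0.01 ± 0.22, so the narrow spread belongs to 1 probe.

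Among 27 other inhibitors of RAS and ERK signalling, 19 were measured (median 0.04), and 0 passed at adjusted p. At unadjusted p, 1 was higher and 2 lower, where 7.18% of tested genes were higher and 8.55% lower. FLRT2, a membrane protein with leucine-rich repeats, lay at 0.43 ± 0.36. PEBP1, which binds RAF and keeps it from MEK, lay at -0.57 ± 0.66, and RASA1, which turns RAS off, at -0.46 ± 0.50. Both had their lowest value in replicate 2, at -1.31 for PEBP1 and -1.03 for RASA1. The slide means of FLRT2 were 0.17 where cetrorelix RNA carried Cy5 and 0.69 where it carried Cy3. Those of PEBP1 were -0.21 and -0.93, and those of RASA1 -0.14 and -0.77. A second tested RASA1 probe lay at -0.12 ± 0.33, with 0.05 in replicate 2.

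The members restrain the cascade of RAS, RAF, MEK and ERK. Of 22 RAS, RAF, MEK and ERK genes with their downstream kinases, 14 were measured (median 0.05), and 0 passed at adjusted p. At unadjusted p, 1 was higher and 2 lower, where 7.18% of tested genes were higher and 8.55% lower. MAP2K1, one of the genes that code for MEK, had log2 ratios of -0.31, -1.18 and -0.50 (mean -0.66 ± 0.45, limma adjusted p = 0.215) and was below 0 on all 6 arrays. MAP2K2, the other MEK gene, named after its values were seen, lay at 0.32 ± 0.16 and above 0 on all 6 arrays (limma adjusted p = 0.485). LAMTOR3, a scaffold of MEK and ERK, lay at -0.60 ± 0.38, also below 0 on all 6 arrays, and ARAF, a RAF kinase, at 0.44 ± 0.33. The slide means of ARAF were 0.05 where cetrorelix RNA carried Cy5 and 0.84 where it carried Cy3. Those of LAMTOR3 were -0.26 and -0.94. The SD, over averages of both slides, does not hold these differences.

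Of 18 adaptors and exchange factors upstream of RAS, 13 were measured, with a median of 0.00 and 0 at adjusted p. At unadjusted p, 3 were lower and 0 higher, where 8.55% of tested genes were lower and 7.18% higher. The 3 lower genes were the docking protein GAB1 at -0.63 ± 0.27, below 0 on all 6 arrays, and the adaptors CRK at -0.63 ± 0.73 and SHC1 at -0.47 ± 0.48. The slide means of CRK were -0.25 where cetrorelix RNA carried Cy5 and -1.01 where it carried Cy3. Those of SHC1 were -0.82 and -0.11, and those of GAB1 -0.48 and -0.79. The probes of a gene disagreed in part, since a second tested probe lay at -0.17 ± 0.49 for GAB1 and at 0.11 ± 0.30 for CRK. Of 19 FGF ligands and receptors 11 were measured, and of 4 EGF receptor genes 2 were. Both lists had 0 members at unadjusted p and 0 at adjusted p, with medians of 0.05 and -0.10. Only 1 of the 11 FGF genes and 0 of the 2 EGF receptor genes were above background on all arrays in both channels. Signal near background thus limits most of these ratios. In the FGF list, the lowest p values belonged to the receptor FGFR4 (0.25 ± 0.36), to FGF5 (0.11 ± 0.31) and to FGF8 (0.09 ± 0.20). The slide means of that FGFR4 probe had opposite signs, -0.46 where cetrorelix RNA carried Cy5 and 0.96 where it carried Cy3. A second FGFR4 probe lay at -0.27 ± 0.18. The EGF receptor EGFR lay at 0.02 ± 0.09 and ERBB3 at -0.22 ± 0.18.

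The cell type was checked with marker lists. All 12 granulosa and cumulus markers were measured, 8 of them above background on all arrays in both channels, and their summed normalized intensity ranged from 148276 to 173409 in cetrorelix cells and from 123622 to 136361 in control cells. Their median log2 ratio was 0.08, and it was -0.11, 0.14 and 0.26 in replicates 1, 2 and 3. At unadjusted p under 0.05 by limma 3 were higher and 0 lower, where 7.18% of tested genes were higher and 8.55% lower. The lowest p belonged to GATA4 (1.07 ± 0.41). Of the 12 means, 8 lay above 0 and 4 below, the lowest that of FSHR (-0.37 ± 0.37). The part of these marker levels in the values of DUSP1 was not tested. Of 9 oocyte and 6 endothelial markers 4 of each were measured, and 0 of either list were above background on all arrays. GDF9, ZP2 and PECAM1 were among those not measured. Of the measured oocyte markers, FIGLA was above background in 5 of 6 cetrorelix and 6 of 6 control channels. ZP3 was so in 4 and 5, BMP15 in 3 and 4, and DDX4 in 1 and 3. Of the endothelial markers, ROBO4 was above background in 5 and 4, and VWF, TEK and CDH5 each in 3 and 4. For 9 theca and stromal, 7 leukocyte and 6 erythrocyte markers, 7, 5 and 5 were measured and 4, 2 and 3 were above background on all arrays. In these 5 lists 1 gene, ACTA2 of the stromal list (0.48 ± 0.16), was at unadjusted p under 0.05. Its slide means had opposite signs, -0.10 where cetrorelix RNA carried Cy5 and 1.06 where it carried Cy3. ACTA2 lay above 0 on 4 of 6 arrays. Its SD, over averages of both slides, does not hold that difference. Otherwise the lowest p values in these lists belonged to DDX4 (-0.33 ± 0.34), ROBO4 (0.16 ± 0.11), AIF1 (-0.24 ± 0.15) and GYPC (0.37 ± 0.45). The list medians lay between -0.08 and 0.12. Between 40.9% and 70.9% of probes were above background in cetrorelix channels and between 54.8% and 69.7% in control channels, with the lowest on the array of replicate 2 with cetrorelix in Cy5. With that array left out, an alternative chosen after the data were seen, DUSP1 lay at -1.05 and SPRY1 at -0.36.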

How the data were processed

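The scanner tables hold, per the file headers, raw median spot intensity and median local background intensity for both lasers, without correction. Which program read the images is not stated in these sources. Normalized log2 ratios were deposited by the authors too, with column medians between -0.03 and 0.01. Across probes that passed the filter, they correlated with the log2 ratios normalized here, at r between 0.842 and 0.996. The deposited ratios thus ran as cetrorelix over control. The submitters' processing notes name limma without settings, so their centring method is unknown.

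Ignored spots (36 to 94 per array) were treated as missing values, and background was corrected by normexp (offset 50). Ratios were normalized within arrays by loess with control spots at weight 0. Probes above background (95th percentile of 153 negative control spots) on at least 3 arrays in either condition were kept, and 32125 with a value on every array were tested. Channel levels were taken after loess and Aquantile. Each gene took the value of its tested probe with the highest mean intensity. Symbols came from the platform annotation, updated through the ARS-UCD2.0 gene table: of 21790, 20025 were current, 1524 matched a synonym and 241 were kept as listed. No coordinates were used.

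The 2 arrays of a replicate were averaged, after the design text, and the 3 averages tested against 0 with limma 3.58.1 (R 4.3.3; lmFit and eBayes, two-sided). Adjusted p follows Benjamini and Hochberg and covers every tested probe. The deviations from the slide means correlated between arrays of the same number (r = 0.23, 0.40 and 0.42 across probes), whereas the log2 ratios themselves did so weakly or not at all (r = 0.08, 0.26 and -0.13). By the deviations, 6 of 6 arrays correlated best with their own number. The fit was tested on simulated data. The number of arrays limits the precision.

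Named genes are all members, the 3 of lowest p in each pathway list, the 1 of lowest p in each marker list and, for the member of lowest p in each family, the 3 genes of highest r. MAP2K2, FSHR, the oocyte and endothelial markers named for their detection, and further probes of genes outside the members were added after their values were seen. Members and lists were chosen with earlier results of these data known. Alternatives changed the background correction, the normalization within and between arrays, the filter, the reading of several probes, the source of the values, the replicates and the slides.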

Additional observations from a re-analysis of the deposited data

How the results depend on the processing

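DUSP1 lay below 0 under all 14 alternatives, from -1.63 to -0.68, with adjusted p by limma from 0.0907 to 0.725, and 0 members passed at adjusted p under any of them. DUSP5 and SPRY1 also kept their direction under all 14. The count of members at unadjusted p, 1, was 0 with scale normalization between arrays, 2 on the slide with cetrorelix in Cy3 alone (DUSP1 and SPRY1), and from 1 to 2 when a replicate was left out. With the replicate number as a block over all 6 arrays (replicate block), 234 probes passed at adjusted p, against 4 of all tested probes with averaged arrays; the estimated correlation within replicates was -0.026, so that the fit treats the 6 arrays nearly as 6 independent samples although there are 3 replicates; DUSP1 then had adjusted p = 0.134, and the block changed no call of a member. The 4 probes became 0 with scale normalization, 7 without the filter, 9 with the authors' deposited ratios, 512 and 1149 on the slides with cetrorelix in Cy5 and Cy3 alone, 0 without the array of replicate 2 with cetrorelix in Cy5, and from 0 to 1265 when a replicate was left out (0 without replicate 1, 386 without replicate 2, 1265 without replicate 3); the cause was not tested. The number of members that differed between slides, 0, was 1 without background correction. Signs turned for SPRED2 (0.021 under median centring, 0.026 with the Cy3 slide of cetrorelix alone, 0.12 without the array named above), for DUSP4 (-0.12 to 0.27 with a replicate left out, below 0 without replicate 1), for SPRY2 (-0.20 to 0.12 with a replicate left out, above 0 without replicate 2, and 0.25 on the slide with cetrorelix in Cy5), for SPRED1 (-0.47 to 0.090 with a replicate left out, above 0 without replicate 2) and for DUSP6 (0.14 on the slide with cetrorelix in Cy5), none at adjusted p under 0.05. SPRY4, tested without the filter only, lay at 0.14 (adjusted p = 0.937). Under median centring 31.8% of genes at unadjusted p were higher, against 45.6% in the values reported and 40.2% to 51.7% under the other alternatives. The median of the members stayed between -0.33 and -0.09. Of 251 list medians under alternatives, 32 moved by over 1 SD of their replicate medians. Signal near background limits DUSP4, DUSP5, SPRY4, SPRED1 and SPRED2.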
